A study of Mus musculus with 17 samples.

Results

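RNA of FOXA2-positive cells was compared with RNA of FOXA2-negative cells after treatment with LDN, an agent whose name the labels do not expand. The comparison took every library whose title names LDN, 5 of the 17 libraries in the series, and split them by the sorted fraction in the title. That gave 2 FOXA2-positive libraries, numbered 2 and 3, and 3 FOXA2-negative libraries, numbered 1, 2 and 3. No FOXA2-positive LDN library numbered 1 was among the 17 libraries. All cells were mouse R1 embryonic stem cells with a FOXA2-Venus reporter, a fluorescent label for the FOXA2 protein. In both LDN groups the cells had retinoic acid for 18 hours, then a gap of 6 hours with no agent, and then LDN for 8 hours. FOXA2-positive and FOXA2-negative cells of the BMP4 arm (3 libraries each) followed the same schedule with BMP4, a bone morphogenetic protein, in the place of LDN. FOXA2-positive and FOXA2-negative cells of the RA arm (3 libraries each) had retinoic acid for 18 hours and no second agent, so in a contrast with RA the agent and the time cannot be told apart. Retinoic acid, the cell line and the reporter are thus common to all groups. How the fluorescence gate was set, how many cells entered a library and how many clones of the reporter line were used could not be read from the sources used here. No source says that replicate libraries derive from separate cultures, so p-values measure the spread between these libraries alone, which may be technical.

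FOXA2 is a forkhead transcription factor of the floor plate (the ventral edge of the neural tube), and also of the notochord and the definitive endoderm. The floor plate secretes Sonic hedgehog, which patterns the ventral spinal cord, whereas BMP signals favour dorsal and surface ectoderm fates. Embryonic stem cells that enter such fates switch off a core of pluripotency genes that includes Pou5f1, Nanog and Zfp42.

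The 5 LDN libraries had gene counts that totalled 8811202 to 10796136 per library (median 10333685), with 16139 to 17683 genes detected. Mitochondrial genes took 3.62% to 4.72% of the counts. Within an LDN group the Spearman correlation between libraries, taken over genes, was 0.932 to 0.935, and pairs differed by more than sampling noise (chi-square over its degrees of freedom 19 to 23.3). Levels below are CPM, counts scaled to library size by edgeR, and a gene was called when its adjusted p in edgeR's quasi-likelihood test was under 0.05.

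Foxa2, the gene behind the sort, had 44.2 and 39.7 CPM in FOXA2-positive libraries 2 and 3, against 2.94, 2.62 and 0 CPM in FOXA2-negative libraries 1, 2 and 3. It shows that the fractions follow their labels and is not a result of the comparison. FOXA2-negative libraries 1 and 2 still held some Foxa2 RNA and library 3 had no count.

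FOXA2-positive cells differed from FOXA2-negative cells in 177 of 17813 tested genes (0.994%). Of these, 51 were higher (0.286%) and 126 were lower (0.707%) in FOXA2-positive cells. The median log2 fold change was 1.30 over the genes called higher and -2.33 over those called lower, against -0.03 over all tested genes. None of the 177 had overlapping libraries, but neither did 4955 of all tested genes (27.8%). The count rested on single libraries. It was 66 without FOXA2-positive library 3, 83 without FOXA2-positive library 2, 106 without FOXA2-negative library 3, 108 without FOXA2-negative library 1 and 163 without FOXA2-negative library 2. Leaving out a FOXA2-positive library leaves 1 in that group, which is then assumed to vary like the other groups. With each of the 5 left out in turn, 27 genes (7 higher and 20 lower) kept their call, among them Gpc3, Cpn1 and Sox4 on the higher side and Tfap2c, Sfn, Tex19.1, Pou5f1, Zfp42, Gadd45g, Elf3 and Urgcp on the lower side.

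**Figure D1:**
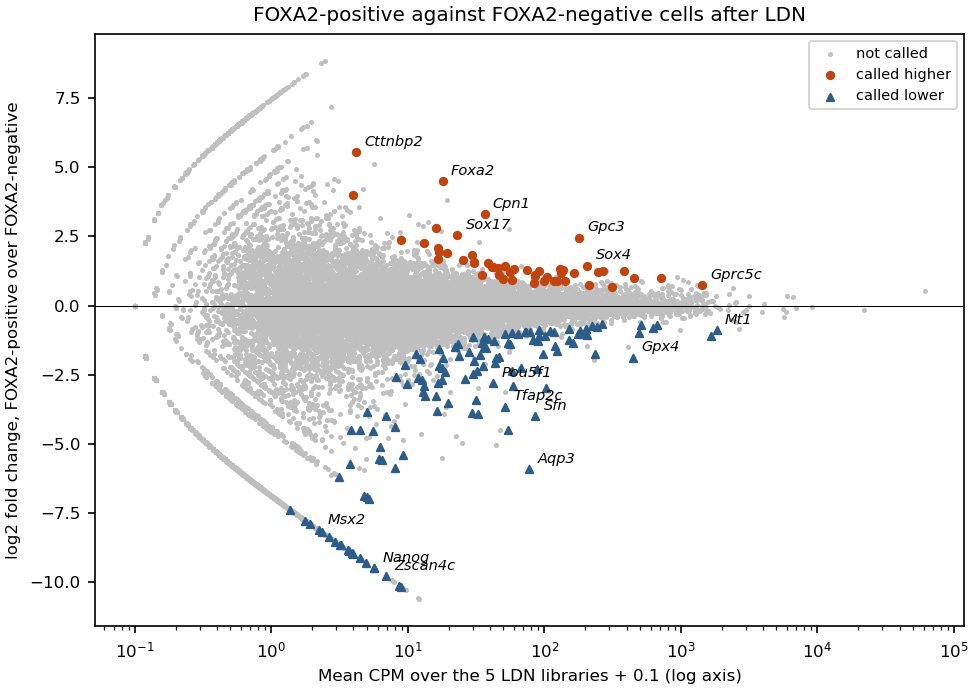
Log2 fold change of FOXA2-positive over FOXA2-negative cells after LDN (y axis) against the mean CPM over the 5 LDN libraries plus 0.1 (log x axis), 1 point per tested gene. The 51 genes called higher are orange circles and the 126 called lower are blue triangles; the diagonal streaks at low levels are genes with 0 counts in 1 of the groups.

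Among the genes called higher, Gpc3 had the highest level of those with a change of more than 2 on the log2 scale. Gpc3 (ENSMUSG00000055653, chromosome X) encodes glypican 3, a heparan sulphate proteoglycan of the cell surface that binds growth factors. It had 284 and 417 CPM in FOXA2-positive libraries, against 71.2, 65.7 and 54.6 CPM in FOXA2-negative libraries (log2 fold change 2.46 ± 0.26, SE; edgeR adjusted p = 1.14e-05). Every FOXA2-positive library was thus well above every FOXA2-negative one. It was the 1 called gene among 12 tested glypican and syndecan genes, where the list median was 0.47. Gpc1 had 108 and 143 CPM in FOXA2-positive libraries, against 133, 111 and 108 CPM in FOXA2-negative libraries, and did not pass the test (0.10 ± 0.19, adjusted p = 0.919).

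The list of endoderm genes had 2 of 15 tested members called higher, 0 called lower and a median log2 fold change of 1.63. They were Sox17, an HMG-box factor of early endoderm, and Cpn1, which encodes the catalytic subunit of carboxypeptidase N, a plasma enzyme made in the liver. Sox17 had 33.5 and 57.5 CPM in FOXA2-positive libraries, against 4.51, 8.74 and 10.2 CPM in FOXA2-negative libraries (log2 fold change 2.54 ± 0.57, SE; edgeR adjusted p = 0.0241). Cpn1 had 85.9 and 72.1 CPM in FOXA2-positive libraries, against 12.4, 9.91 and 1.57 CPM in FOXA2-negative libraries (3.31 ± 0.54, adjusted p = 0.00268). FOXA2-negative library 3, the one with no Foxa2 count, was also the lowest for Cpn1 but the highest of the FOXA2-negative libraries for Sox17. The summed level of the 18 endoderm genes was 201 to 215 CPM in FOXA2-positive libraries, against 49.7 to 71.1 CPM in FOXA2-negative libraries. Cpn1 and Sox17 made up the larger part of that sum in FOXA2-positive libraries. The list was chosen with earlier results of these data known, so its calls and its sum are description only. Of the defining endoderm genes, Cer1, Afp and Ttr were at 0 in all 5 libraries, Apoa1 was at 0 in both FOXA2-positive libraries and Hnf4a had 26 counts in the FOXA2-positive and 1 in the FOXA2-negative group. Foxa1, the sister gene of the sorted factor, had 20.6 and 14.7 CPM in FOXA2-positive libraries, against 0.21, 3.01 and 5.1 CPM in FOXA2-negative libraries, and did not pass the test (2.66 ± 1.16, adjusted p = 0.391). Whether a small share of endoderm-like cells in the FOXA2-positive fraction had a part in these values was not tested. In sorted pools, more cells of a type and more RNA per cell cannot be told apart, and neither can fewer cells and less RNA. The Sox17 call was lost without any of 4 libraries (adjusted p up to 0.282, without FOXA2-positive library 3), while Cpn1 stayed at or under an adjusted p of 0.0287.

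The Cpn1 promoter is shown because it was the 1 window among those of the genes named as higher that held both forkhead words searched for, TGTTTAC and TGTTTGC. The window runs from 250 bases before to 50 bases after the annotated start in RefSeq (GRCm38.p6, chr19:43986471-43986770, minus strand), is written 5′ to 3′, and has the matches in capitals.
Cpn1: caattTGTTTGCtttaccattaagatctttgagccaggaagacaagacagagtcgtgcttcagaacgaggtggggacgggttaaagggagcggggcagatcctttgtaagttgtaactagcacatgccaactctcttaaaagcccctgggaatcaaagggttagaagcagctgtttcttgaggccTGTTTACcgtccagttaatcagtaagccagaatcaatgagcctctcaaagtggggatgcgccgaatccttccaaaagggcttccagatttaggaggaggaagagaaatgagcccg
Of 54 promoter windows of genes called higher, 5.56% held TGTTTAC and 7.41% held TGTTTGC on either strand, against 3.36% and 1.68% of 119 windows of genes called lower, and 3.65% and 5.07% of all 32851 windows. The letters describe the window and do not show binding.

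Markers of the floor plate other than Foxa2 gave no call. Of 13 such genes 8 could be tested, 7 of the 8 had a positive log2 fold change and the median was 0.73. The list shares Foxa1 with the endoderm list. It summed to 108 to 129 CPM in FOXA2-positive libraries, against 66.9 to 74 CPM in FOXA2-negative libraries. Notochord and node genes gave no call among 7 tested (median 0.72) and summed to 108 to 128 CPM against 69.6 to 84.5 CPM. Mesoderm and primitive streak genes gave none among 14 (median 0.30) and summed to 56.3 to 71.7 CPM against 39.3 to 51.6 CPM. Shh, the floor plate signal, had 0.189 and 1.08 CPM in FOXA2-positive libraries (11 counts in all) and 0 counts in all 3 FOXA2-negative libraries, too few to be tested. Ferd3l and Corin, which mark the mature floor plate or its progenitors, had 0 counts in all 5 libraries. Ntn1, the axon guidance ligand netrin 1, had 15.4 and 12.5 CPM in FOXA2-positive libraries, against 9.12, 5.15 and 8.43 CPM in FOXA2-negative libraries (0.89 ± 0.59, adjusted p = 0.574). The Hedgehog pathway list also had no call among 15 tested genes (median 0.53). Its transcriptional effector and target Gli1 had 33.4 and 18.5 CPM in FOXA2-positive libraries, against 4.93, 6.61 and 13.7 CPM in FOXA2-negative libraries (1.62 ± 0.47, adjusted p = 0.118). Hhip, another Hedgehog target that encodes a decoy for the ligand, had lower values, with 2.27 and 3.61 CPM in FOXA2-positive libraries and 15.9, 7.58 and 10.2 CPM in FOXA2-negative libraries (-1.93 ± 0.68, adjusted p = 0.225). In both genes the groups did not overlap, yet neither difference passed the test.

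None of 15 tested neural progenitor genes was called (median 0.31). Their summed level was 1177 to 1294 CPM in FOXA2-positive libraries, against 786 to 853 CPM in FOXA2-negative libraries, while Sox1, Pax6 and Irx3 had overlapping libraries. Pax6 had 48.2 and 40.9 CPM in FOXA2-positive libraries, against 45.9, 58.3 and 40.2 CPM in FOXA2-negative libraries (-0.11 ± 0.26, adjusted p = 0.947). Sox4, an HMG-box factor of young neurons and progenitors that here stood in the list of neuronal genes, was the 1 call among 14 of that list. It had 355 and 309.7 CPM in FOXA2-positive libraries, against 111, 148 and 108 CPM in FOXA2-negative libraries (1.44 ± 0.19, SE; edgeR adjusted p = 0.000132), and kept the call with each library left out. The list had 6 members with a positive and 8 with a negative log2 fold change (median -0.13), and summed to 565 to 604 CPM in FOXA2-positive libraries, against 335 to 383 CPM in FOXA2-negative libraries. Sox4 made up the larger part of that sum in FOXA2-positive libraries. Tubb3, a neuronal tubulin, had 9.28 and 27.7 CPM in FOXA2-positive libraries, against 37.1, 56.2 and 35.8 CPM in FOXA2-negative libraries, and did not pass the test (-1.23 ± 0.37, adjusted p = 0.129).

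Among genes that give cells their place along the body axis, Meis1, a homeodomain partner of HOX proteins, was the 1 call among 23 tested genes of retinoic acid handling and response. It had 90.3 and 76.1 CPM in FOXA2-positive libraries, against 17, 40.3 and 34.4 CPM in FOXA2-negative libraries (1.44 ± 0.27, adjusted p = 0.00514). Its relative Meis2 had 233 and 243 CPM in FOXA2-positive libraries, against 244, 237 and 196 CPM in FOXA2-negative libraries, and did not pass the test (0.07 ± 0.20, adjusted p = 0.961). None of 14 tested Hox genes of groups 6 to 13 was called (median 0.09). Without FOXA2-positive library 2 the adjusted p of Meis1 was 0.0748.

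Nrp1, a co-receptor for semaphorins and VEGF, had 40.2 and 20.9 CPM in FOXA2-positive libraries, against 9.75, 5.44 and 6.28 CPM in FOXA2-negative libraries (2.10 ± 0.49, edgeR adjusted p = 0.029). With Flrt3, which encodes a membrane protein of repulsive guidance and adhesion (1.39 ± 0.32, adjusted p = 0.0288), it made 2 calls among 36 guidance genes (median 0.21). Of 39 Wnt ligands, receptors and modulators 2 were higher and 2 lower (median 0.58). The higher pair was the Wnt receptor gene Fzd2, with 198 and 225 CPM in FOXA2-positive libraries, against 97.4, 93.8 and 66.9 CPM in FOXA2-negative libraries (1.29 ± 0.24, adjusted p = 0.00578), and Dact2, which encodes a modulator of Wnt signalling (1.37 ± 0.30, adjusted p = 0.0185). The lower pair was of ligands. Wnt4 had 1.61 and 3.49 CPM in FOXA2-positive libraries, against 37.6, 19.9 and 16.7 CPM in FOXA2-negative libraries (-3.29 ± 0.62, adjusted p = 0.00578). Wnt6 had 3.6 and 4.69 CPM in FOXA2-positive libraries, against 18.4, 27.6 and 33.8 CPM in FOXA2-negative libraries (-2.68 ± 0.55, adjusted p = 0.0123). No gene among 17 Wnt targets was called (median 0.47). Axin2, the usual readout of Wnt activity, had 22.1 and 44.5 CPM in FOXA2-positive libraries and 33.1, 33.6 and 28.6 CPM in FOXA2-negative libraries, which overlap (0.06 ± 0.34, adjusted p = 0.995). Each of these 6 calls was lost without at least 1 library, with the largest adjusted p between 0.0914 for Fzd2 and 0.362 for Nrp1.

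The rule for naming genes took the 15 largest positive changes among called genes whose mean reached 5 CPM. After Foxa2, Cpn1, Sox17, Gpc3 and Nrp1, these were Pla2g7, Thsd4, Arhgef28, Sh3pxd2b, Spred3, Tspan12, B4galnt4, Inava, Ubash3b and Cplx2, with log2 fold changes between 1.55 for Cplx2 and 2.80 for Pla2g7. Pla2g7, a secreted phospholipase that breaks down platelet-activating factor, had 29.9 and 35.9 CPM in FOXA2-positive libraries, against 5.66, 8.16 and 0.294 CPM in FOXA2-negative libraries (edgeR adjusted p = 0.0399). As with Foxa2 and Cpn1, FOXA2-negative library 3 was by far the lowest, whereas for Sox17, Foxa1 and Gli1 it was the highest of the FOXA2-negative libraries. Spred3, an inhibitor of ERK signalling, had 27.8 and 40.7 CPM in FOXA2-positive libraries, against 11.3, 7.38 and 8.82 CPM in FOXA2-negative libraries (1.90 ± 0.46, adjusted p = 0.039). Tspan12, a tetraspanin of the Norrin receptor complex, had 46.2 and 56.6 CPM in FOXA2-positive libraries, against 11.8, 19.3 and 12.6 CPM in FOXA2-negative libraries (1.82 ± 0.42, adjusted p = 0.0278). Of the 15, Foxa2, Cpn1 and Gpc3 stayed called whichever LDN library was left out. The other 12 lost theirs without at least 1, with the largest adjusted p between 0.152 for Inava (without FOXA2-positive library 2) and 0.65 for B4galnt4 (without FOXA2-positive library 3).

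**Figure D2:**
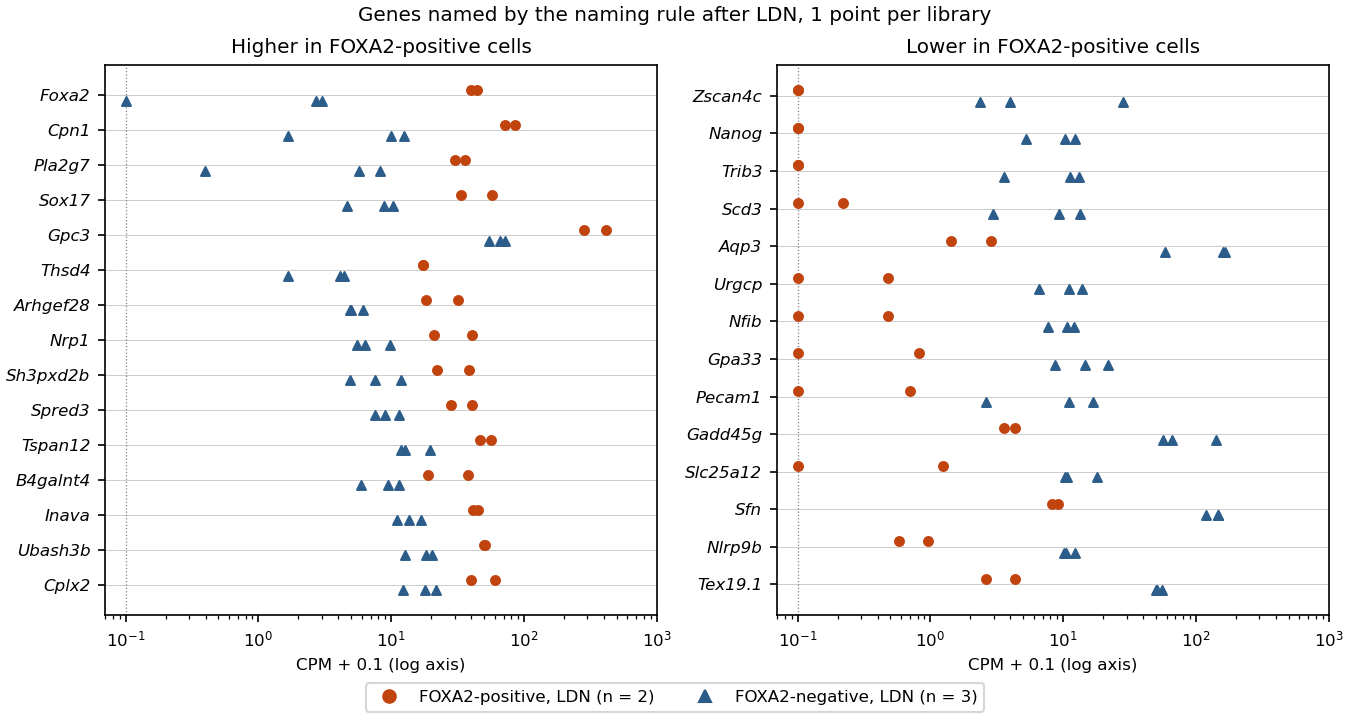
CPM plus 0.1 (log x axis) of 15 genes named as higher and 14 named as lower in FOXA2-positive cells after LDN, 1 point per LDN library. FOXA2-positive libraries are orange circles and FOXA2-negative libraries blue triangles; points on the dotted line are at 0 counts, as for Nanog in both FOXA2-positive libraries, and for every gene the groups do not overlap.

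Pluripotency genes were the list with the most calls. Of 26 tested members 9 were lower in FOXA2-positive cells, 0 were higher and the median log2 fold change was -1.93, or -1.76 with genes at 0 counts set to their bound. Pou5f1, the core pluripotency factor also called OCT4, had 11.7 and 6.5 CPM in FOXA2-positive libraries, against 58.6, 54.1 and 79.5 CPM in FOXA2-negative libraries (-2.80 ± 0.35, SE; edgeR adjusted p = 6.16e-05). Nanog, its partner in the core circuit, had 0 counts in both FOXA2-positive libraries, against 10.3, 5.15 and 12.3 CPM in FOXA2-negative libraries, and was at least 57.8-fold lower against a floor of 3 counts over the FOXA2-positive group (adjusted p = 0.00501). Zfp42, the ES cell marker REX1, had 16 and 13.6 CPM in FOXA2-positive libraries, against 68.4, 41.4 and 76.9 CPM in FOXA2-negative libraries (-2.07 ± 0.30, adjusted p = 0.00037). FOXA2-positive cells thus still held Pou5f1 and Zfp42 RNA in both libraries, while Nanog was not detected. The other called members were Utf1 (-2.26), L1td1 (-2.37), Fgf4 (-4.50), Tbx3 (-1.74), Klf5 (-1.14) and Dppa5a (-1.0). Tdgf1, the Nodal co-receptor gene of ES cells, was at 0 counts in both FOXA2-positive libraries, against 25.9, 5.63 and 28.4 CPM in FOXA2-negative libraries, and still did not pass the test (adjusted p = 0.174). Sox2, Sall4 and Lin28a were the 3 members with positive log2 fold changes. Lin28a, an RNA-binding protein gene, and Sall4, a zinc finger factor, are far more abundant than the rest, so the summed level of the list ran the other way from its median, at 5653 to 6455 CPM in FOXA2-positive libraries and 4833 to 5856 CPM in FOXA2-negative libraries, which overlap. Sox2, which pluripotent and neural progenitor cells both use, had 114 and 122 CPM in FOXA2-positive libraries, against 110.5, 98.9 and 89.9 CPM in FOXA2-negative libraries (0.24 ± 0.21, adjusted p = 0.702). Pou5f1 and Zfp42 kept their calls with each library left out. The adjusted p of Nanog was 0.088 without FOXA2-positive library 2, and the other 6 calls were lost without at least 1 library (largest adjusted p between 0.0501 for Tbx3 and 0.476 for Klf5, both without FOXA2-positive library 3).

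The Zfp42 and Gadd45g promoters are shown because they were the windows of called genes that held both the octamer ATGCAAAT, the DNA word of POU factors such as OCT4, and the AP-2 word GCCNNNGGC. Both windows are from RefSeq (GRCm38.p6), 5′ to 3′, with the matches on either strand in capitals, at chr8:43306960-43307259 on the minus strand for Zfp42 and chr13:51846425-51846724 on the plus strand for Gadd45g.
Zfp42: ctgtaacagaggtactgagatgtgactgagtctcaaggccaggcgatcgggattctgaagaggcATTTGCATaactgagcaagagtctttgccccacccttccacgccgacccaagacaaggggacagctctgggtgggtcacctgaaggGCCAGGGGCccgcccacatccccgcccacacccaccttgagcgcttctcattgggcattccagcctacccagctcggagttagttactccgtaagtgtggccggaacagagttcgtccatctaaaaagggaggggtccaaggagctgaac
Gadd45g: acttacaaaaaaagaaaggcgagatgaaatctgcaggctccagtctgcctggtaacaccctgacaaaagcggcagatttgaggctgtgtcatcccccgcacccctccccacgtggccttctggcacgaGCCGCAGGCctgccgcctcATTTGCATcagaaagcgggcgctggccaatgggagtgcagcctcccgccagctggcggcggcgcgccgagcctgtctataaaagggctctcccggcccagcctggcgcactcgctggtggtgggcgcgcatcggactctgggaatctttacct
The octamer was in 0 of 54 windows of genes called higher and in 6 of 119 windows of genes called lower (5.04%), against 1.74% of all windows. The AP-2 word was in 27.8% of windows of genes called higher and 29.4% of those called lower, against 16.6% of all. The SOX-type word AACAAAG was in 0 windows of genes called higher and 3.36% of those called lower, against 5.85% of all. No test was made of these shares. The windows cover 43 of the 51 genes called higher and 93 of the 126 called lower.

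Of 15 tested surface ectoderm transcription factors 4 were called lower, 0 higher and 11 did not pass the test (median -2.30). Tfap2c, an AP-2 factor of surface ectoderm, trophoblast and germ cells, had 7.29 and 5.66 CPM in FOXA2-positive libraries, against 65.9, 78.9 and 101 CPM in FOXA2-negative libraries (-3.66 ± 0.32, SE; edgeR adjusted p = 3.61e-07). Its relative Tfap2a had 2.18 and 8.43 CPM in FOXA2-positive libraries, against 20.4, 34.1 and 27.6 CPM in FOXA2-negative libraries (-2.40 ± 0.50, adjusted p = 0.0236). Elf3, an ETS factor of epithelia, had 23.8 and 28.4 CPM in FOXA2-positive libraries, against 102, 96.6 and 187 CPM in FOXA2-negative libraries (-2.30 ± 0.33, adjusted p = 0.000334). Dlx3, a homeobox gene of the epidermis, was the fourth (-2.63 ± 0.49, adjusted p = 0.00537). The mature epidermal factor Trp63 had 0 counts in both FOXA2-positive libraries and counts in FOXA2-negative library 1 only. The summed level of this list was 57.8 to 108 CPM in FOXA2-positive libraries, against 267 to 432 CPM in FOXA2-negative libraries. The trophoblast list, whose 7 tested members gave no call, summed to 33.7 to 57.3 CPM in FOXA2-positive libraries and 80.8 to 134 CPM in FOXA2-negative libraries. The part of either cell type in the calls was not tested. Tfap2c and Elf3 kept their calls with each library left out, whereas Dlx3 and Tfap2a had an adjusted p of 0.112 and 0.193 without FOXA2-positive library 2.

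Of 26 tested keratin and epithelial adhesion genes 3 were called lower (median -0.62). Sfn, the epithelial 14-3-3 protein sigma, had 8.14 and 9.03 CPM in FOXA2-positive libraries, against 147, 118 and 147 CPM in FOXA2-negative libraries (-4.00 ± 0.43, edgeR adjusted p = 1.14e-05). Krt8 had 48.1 and 67.2 CPM in FOXA2-positive libraries, against 148, 154 and 178 CPM in FOXA2-negative libraries (-1.47 ± 0.31, adjusted p = 0.0146). Its filament partner Krt18 had 136 and 137 CPM in FOXA2-positive libraries, against 219, 224 and 286 CPM in FOXA2-negative libraries (-0.83 ± 0.19, adjusted p = 0.0305). Both keratin calls were lost without any of 3 libraries (adjusted p up to 0.216 for Krt8 and 0.242 for Krt18), and the Sfn call was not lost. The adhesion gene Epcam just missed the threshold, with 135 and 154 CPM in FOXA2-positive libraries and 223, 213 and 239.7 CPM in FOXA2-negative libraries (-0.64 ± 0.16, adjusted p = 0.0529). Cdh1, E-cadherin, had 105 and 111 CPM in FOXA2-positive libraries, against 123, 133 and 134 CPM in FOXA2-negative libraries (-0.27 ± 0.21, adjusted p = 0.651).

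Of 27 tested germline genes 4 were called lower, 0 higher and 23 did not pass the test (median -1.01). Tex19.1, a germline gene that is also active in ES cells and placenta, had 4.26 and 2.53 CPM in FOXA2-positive libraries, against 50.1, 50.9 and 54.9 CPM in FOXA2-negative libraries (-3.92 ± 0.44, SE; edgeR adjusted p = 1.14e-05). Dnmt3l, a cofactor of DNA methylation in germ cells, had 8.52 and 12.9 CPM in FOXA2-positive libraries, against 59.1, 30.7 and 40.3 CPM in FOXA2-negative libraries (-2.02 ± 0.46, adjusted p = 0.0262). Stra8, which retinoic acid induces before meiosis, was abundant in both fractions, with 441 and 421 CPM in FOXA2-positive libraries and 824, 706 and 742 CPM in FOXA2-negative libraries (-0.81 ± 0.18, adjusted p = 0.0269). Tdrd12 of the piRNA pathway was the fourth (-1.82, adjusted p = 0.0316). The calls of Dnmt3l, Stra8 and Tdrd12 were each lost without any of 4 libraries (adjusted p up to 0.307), and that of Tex19.1 was kept. All 13 tested genes of the 2-cell-like state, a rare state of ES cells with transcripts of the early embryo, had negative log2 fold changes, but 12 of them did not pass the test. Of the 15 list genes in the counts, 13 had 0 counts in both FOXA2-positive libraries. These could pass the filter on low counts only through other libraries, so their shared sign was largely set beforehand and is not a result about the list. The 1 called gene, Zscan4c, had 0 counts in both FOXA2-positive libraries, against 28.0, 3.89 and 2.25 CPM in FOXA2-negative libraries, at least 69.1-fold lower (adjusted p = 0.0124, and 0.187 without FOXA2-positive library 3). The list summed to 0.189 to 0.241 CPM in FOXA2-positive libraries and to 210, 47.0 and 16.2 CPM in FOXA2-negative libraries 1, 2 and 3. FOXA2-negative library 1 thus held most of these transcripts. Zscan4 and Usp17l genes are families of near-identical copies, and the split of reads among members is uncertain.

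Targets of BMP signalling had calls in both directions. Among 18 BMP-SMAD target genes 1 was called higher and 3 lower (median 0.40). Id3, an inhibitor of bHLH factors, had 49.9 and 53.1 CPM in FOXA2-positive libraries, against 30, 21.8 and 20.7 CPM in FOXA2-negative libraries (1.09 ± 0.20, edgeR adjusted p = 0.00497). The lower targets were Dlx3, Tbx3 and Msx2. Msx2, a homeobox gene of dorsal and epidermal cells, was at 0 counts in both FOXA2-positive libraries, against 3.46, 3.98 and 3.24 CPM in FOXA2-negative libraries, at least 22.4-fold lower (adjusted p = 0.000112). Msx1, its paralogue, had values in the other direction, with 162 and 210.3 CPM in FOXA2-positive libraries and 83.8, 112 and 68.5 CPM in FOXA2-negative libraries, and did not pass the test (1.07 ± 0.33, adjusted p = 0.183). None of 17 BMP ligands, receptors and SMADs (median 0.18) and none of 14 BMP antagonists (median 0) was called. Of 19 tested Nodal and activin pathway genes 1 was called lower (median -0.57). It was the ligand gene Nodal itself, with 0.568 and 0 CPM in FOXA2-positive libraries, against 6.18, 6.32 and 8.92 CPM in FOXA2-negative libraries (-4.51 ± 0.96, adjusted p = 0.0155). Without FOXA2-positive library 3 the adjusted p was 0.061 for Id3, 0.0501 for Tbx3 and 0.226 for Nodal, and Msx2 kept its call. In the 5 LDN libraries alone the adjusted p was 0.13 for Msx2, 0.0866 for Id3, 0.133 for Tbx3 and 0.139 for Nodal. These calls were thus lost in that fit, while Dlx3 kept its call (adjusted p = 0.0321).

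**Figure D3:**
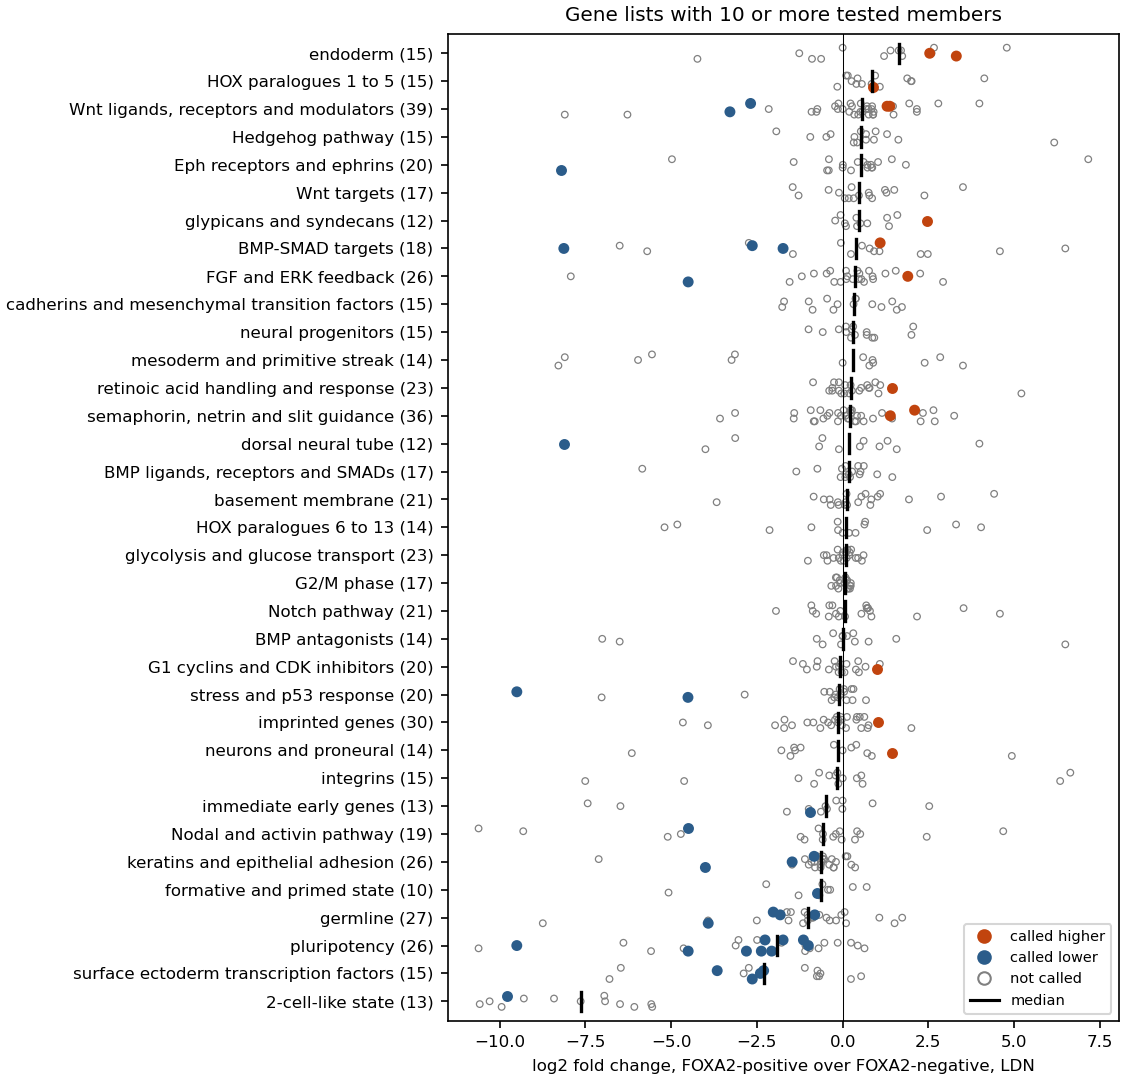
Log2 fold change of FOXA2-positive over FOXA2-negative cells after LDN (x axis) for the tested members of each list with 10 or more of them, with the number tested in brackets. Filled points are called genes, open points are not called and bars are medians, which run from -7.64 for the 2-cell-like genes (-5.55 with genes at 0 counts set to their bound) to 1.63 for endoderm (1.67 with bounds).

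The remaining lists had few calls or none. Ccnd2, the G1 cyclin D2, was the 1 call among 20 G1 cyclins and CDK inhibitors (median -0.09). It had 636 and 660.4 CPM in FOXA2-positive libraries, against 260.0, 452 and 252 CPM in FOXA2-negative libraries (1.01 ± 0.18, edgeR adjusted p = 0.00319, and 0.0609 in the 5 LDN libraries alone). None of 17 G2/M genes was called (median 0.08, range -0.33 to 0.24), and none of 23 genes of glycolysis (median 0.09), 21 of the Notch pathway (median 0.07), 15 integrins (median -0.16), 21 of the basement membrane (median 0.13) or 15 cadherins and mesenchymal transition factors (median 0.32). Of 20 stress and p53 genes Gadd45g and Trib3 were called lower (median -0.11). Gadd45g, which slows growth and acts in DNA repair, had 3.5 and 4.21 CPM in FOXA2-positive libraries, against 56.5, 66.3 and 140.4 CPM in FOXA2-negative libraries (-4.51 ± 0.59, adjusted p = 0.000206). Trib3, a pseudokinase of the amino acid stress response, had 0 counts in both FOXA2-positive libraries, against 13, 3.5 and 11.2 CPM in FOXA2-negative libraries, at least 57.4-fold lower (adjusted p = 0.00806, and 0.109 without FOXA2-positive library 2). The p53 targets Cdkn1a and Mdm2 had overlapping libraries, and Cdkn1a had 218 and 179 CPM in FOXA2-positive libraries and 134, 262 and 156 CPM in FOXA2-negative libraries (0.11 ± 0.26, adjusted p = 0.942). Of 40 lists, 23 held at least 1 called gene and 17 held none.

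Genes with 0 counts were more frequent on the FOXA2-positive side. Of the tested genes, 32 had 0 counts in both FOXA2-positive libraries and at least 5 CPM in FOXA2-negative cells, and 2 had 0 counts in all FOXA2-negative libraries and at least 5 CPM in FOXA2-positive cells. The FOXA2-positive group has 2 libraries and the FOXA2-negative group 3, which makes a 0 in every library easier to reach in the FOXA2-positive group. FOXA2-positive libraries 2 and 3 had 16674 and 16139 genes detected, against 17683, 17338 and 17081 in FOXA2-negative libraries 1, 2 and 3. The part of this difference in the 0 counts and in the genes called lower was not tested. Of the 126 genes called lower, 20 had 0 counts and 5 had 1 to 3 counts in FOXA2-positive cells. Scd3, a fatty acid desaturase, had 1 count there, against 13.3, 9.23 and 2.84 CPM in FOXA2-negative libraries, a ratio of 158 with an exact 95% interval of 28.1 to 6250. Such intervals, and the floor of 3 counts, cover counting error only.

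The 3 FOXA2-negative libraries were not alike in these genes. Library 2 was the lowest of the 3 in 67 of the 126 genes called lower (53.2%) and in 18 of 26 tested pluripotency genes (69.2%), against 34.1% of all tested genes. Library 3 was the lowest in 25 of the 51 genes called higher (49%), against 29% of all tested genes. FOXA2-negative library 2 thus stood nearest to the FOXA2-positive libraries for the first set and library 3 farthest for the second. Aqp3, a water and glycerol channel, is an example, with 2.75 and 1.32 CPM in FOXA2-positive libraries, against 165, 58 and 158 CPM in FOXA2-negative libraries 1, 2 and 3 (-5.92 ± 0.93, edgeR adjusted p = 0.00935, and 0.169 without FOXA2-positive library 3).

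The contrast between the fractions was set against that after the other treatments. The same test called 164 genes (0.921%) between the fractions after BMP4, 57 higher (0.32%) and 107 lower (0.601%). After RA it called 212 (1.19%), 66 higher (0.371%) and 146 lower (0.82%). Same-numbered RA libraries deviated together, and with the replicate number as a block RA gave 362 calls (140 higher and 222 lower), of which 29 and 68 were also called in the same direction after LDN. The counts that follow are from the fit without the block. Of the 51 genes higher after LDN, 21 were also called higher after BMP4 (41.2% of the LDN genes and 36.8% of the BMP4 genes) and 22 after RA (43.1% and 33.3%). Of the 126 lower after LDN, 49 were also called lower after BMP4 (38.9% and 45.8%) and 66 after RA (52.4% and 45.2%). Among these there was not 1 gene with calls of opposite sign. The sign of the log2 fold change was the same for 162 of the 177 after BMP4 and for 170 after RA. The share of same signs over all tested genes is not given, so these counts have no baseline. In all, 77 of the 177 (24 higher and 53 lower) were called after LDN but after neither BMP4 nor RA. That alone does not show a difference between treatments, since the difference itself was called for 3 of the 77 against BMP4 and for 0 against RA.

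**Figure D4:**
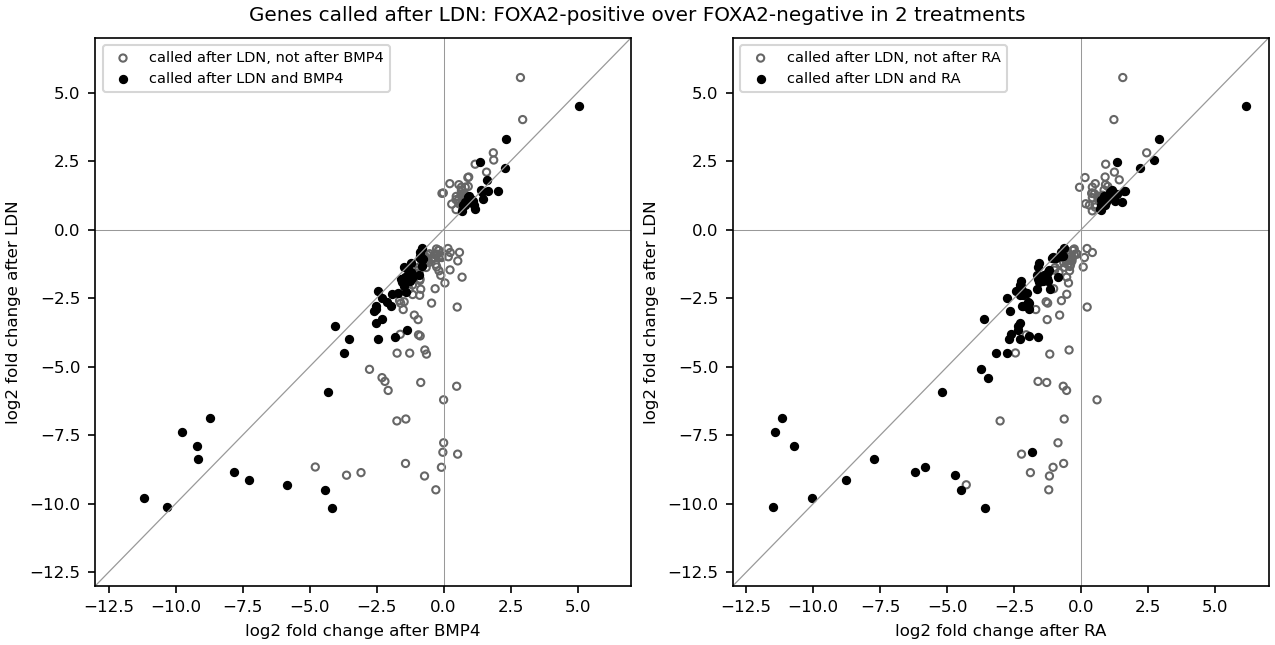
Log2 fold change of FOXA2-positive over FOXA2-negative cells after LDN (y axis) against the same after BMP4 (left) or RA (right, x axes), for the 177 genes called after LDN; filled points were called after both treatments and the line marks equal values. The genes were chosen by their LDN test. Of them, 162 have the same sign after BMP4 and 170 after RA, counts given without a share over all tested genes.

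A test of the difference between the LDN and BMP4 contrasts called 6 genes (0.0337%), all with a more negative log2 fold change after LDN. For Tbx3, a T-box gene of BMP response and of naive pluripotency, the log2 fold change after LDN was lower than that after BMP4 by -2.43 ± 0.36 (SE; edgeR adjusted p = 0.00438). FOXA2-positive cells had 5.02 and 4.45 CPM after LDN and FOXA2-negative cells 15.8, 19.7 and 12 CPM, while after BMP4 the FOXA2-positive cells had 163, 220.4 and 125 CPM and the FOXA2-negative cells 97.8, 119 and 98.6 CPM. Both fractions were thus far lower after LDN than after BMP4, and FOXA2-positive cells were below FOXA2-negative cells after LDN but above them after BMP4, where the contrast itself was not called (0.69 ± 0.22, adjusted p = 0.175). Without strand information, reads of Tbx3 and of its antisense neighbour cannot be told apart. Msx2, at 0 counts in FOXA2-positive cells after LDN, had 26.6, 27.4 and 24.1 CPM in FOXA2-positive cells and 23.4, 26.9 and 29.4 CPM in FOXA2-negative cells after BMP4, where the fractions overlapped (difference of contrasts adjusted p = 0.00438). Krt18 had 136 and 137 CPM in FOXA2-positive cells against 219, 224 and 286 CPM in FOXA2-negative cells after LDN, but 248, 248 and 256.5 CPM in FOXA2-positive cells against 149.6, 176 and 173 CPM in FOXA2-negative cells after BMP4. Its difference of contrasts was -1.43 ± 0.26 (adjusted p = 0.0324), and its BMP4 contrast was not called (0.59 ± 0.17, adjusted p = 0.107). After RA, Krt18 had 75.2, 86.5 and 121.4 CPM in FOXA2-positive cells and 121.6, 170 and 154.3 CPM in FOXA2-negative cells. Its RA contrast was thus negative as after LDN, but not called (-0.655 ± 0.171, adjusted p = 0.0579). The RA contrast of Tbx3 was also negative and not called (-0.543 ± 0.226, adjusted p = 0.364).

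In Tfap2c and Urgcp the fractions pointed the same way after both agents and stood farther apart after LDN. Tfap2c had 21.7, 26.5 and 17.3 CPM in FOXA2-positive cells and 50.4, 56.6 and 62.9 CPM in FOXA2-negative cells after BMP4, a log2 fold change of -1.38 ± 0.25, against -3.66 ± 0.32 after LDN (difference -2.28 ± 0.38, edgeR adjusted p = 0.013). Urgcp, a gene linked to cell proliferation, had 0.379 and 0 CPM in FOXA2-positive cells and 11.0, 6.51 and 13.8 CPM in FOXA2-negative cells after LDN, against 12.8, 12.7 and 16.5 CPM in FOXA2-positive cells and 33.9, 17.2 and 24.7 CPM in FOXA2-negative cells after BMP4 (difference -4.73 ± 0.89, adjusted p = 0.049). The BMP4 contrast of Urgcp was not called (-0.85 ± 0.47, adjusted p = 0.513), whereas that of Tfap2c was (adjusted p = 0.00406). The count of 6 was 3 without FOXA2-negative BMP4 library 1 or 2, without FOXA2-positive BMP4 library 2 or without FOXA2-negative LDN library 3. Tbx3 was called in every such fit, whereas Urgcp, Krt18 and Tfap2c lost their calls in several, for example at adjusted p = 0.155, 0.155 and 0.0963 without FOXA2-negative LDN library 3, and Msx2 had an adjusted p of 0.0721 without FOXA2-positive LDN library 2.

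Against RA the difference of contrasts was called for 1 gene (0.00561%). Gm17251, annotated as a long noncoding RNA at a bidirectional promoter on chromosome 17, which lies outside the rule for naming genes and was chosen after its value was seen, had 5.87 and 11.9 CPM in FOXA2-positive cells and 12.5, 3.30 and 10.2 CPM in FOXA2-negative cells after LDN. After RA it had 5.20, 6.10 and 6.04 CPM in FOXA2-positive cells and 102, 170.1 and 226 CPM in FOXA2-negative cells, so that the FOXA2-negative RA libraries alone were high (difference 4.87 ± 0.57, SE; edgeR adjusted p = 0.000102). Genes named for the smallest p in this test that did not pass were Ctnnbl1, Urgcp, Tex19.1, Dynll1, Psma7, Hexdc and Ifitm3, with adjusted p between 0.232 and 0.549. Tex19.1, for instance, had 4.26 and 2.53 CPM in FOXA2-positive cells after LDN and 13.2, 23.3 and 15.4 CPM in FOXA2-positive cells after RA, with FOXA2-negative cells at 50.1, 50.9 and 54.9 CPM after LDN and 55.5, 72.4 and 29.6 CPM after RA (difference -2.32 ± 0.52, adjusted p = 0.371).

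**Figure D5:**
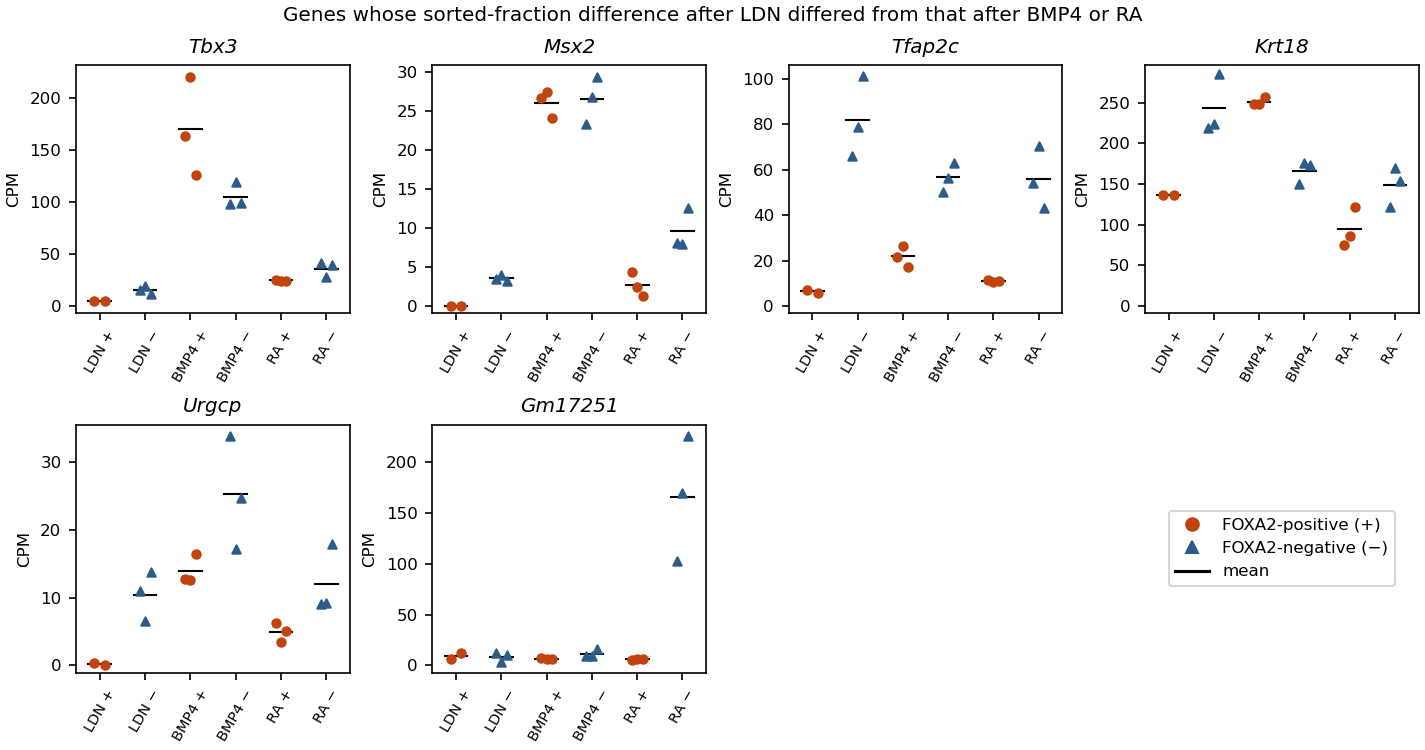
CPM of 6 genes whose difference between fractions after LDN differed from that after BMP4 (Tbx3, Msx2, Tfap2c, Krt18 and Urgcp) or RA (Gm17251), 1 point per library in each of the 6 groups, with FOXA2-positive cells (+, orange circles) left of FOXA2-negative cells (−, blue triangles) and bars at group means. FOXA2-positive LDN libraries are the lowest for Tbx3, Msx2, Tfap2c and Urgcp, and FOXA2-negative RA libraries are the highest for Gm17251.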

How the data were processed

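RNA was measured in 17 SMART-Seq v2 libraries, a full-length RNA-seq method, per the labels' protocols. The deposited values are raw counts, 1 table per library and 1 line per Ensembl gene. Tools listed in the submitters' processing notes are HTSeq 0.11.2, UMI-tools 1.0.0, DESeq2 1.26.0 and cutadapt 1.18, with mm10 as the build. The sources used here name no aligner, annotation release or strand setting, so reads of overlapping antisense genes cannot be told apart. Summary lines that name no gene took 50% to 52.8% of the tallied reads in the LDN libraries and stayed out. Symbols and positions came from GENCODE M21 (GRCm38, also called mm10), and promoter windows from RefSeq (GRCm38.p6).

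Groups were read from the library titles. edgeR 4.0.16 (R 4.3.3) was run on the counts of all 6 groups, with filterByExpr (minimum count 10, minimum total 15; 17813 genes kept), TMM scaling and 1 robust quasi-likelihood model (11 residual degrees of freedom, common biological coefficient of variation 0.632). Contrasts were FOXA2-positive over FOXA2-negative within each treatment, and LDN minus BMP4 and LDN minus RA of these, each adjusted over all genes by Benjamini-Hochberg at 0.05. Every adjusted p is from edgeR's quasi-likelihood test unless another tool is named. Standard errors are the size of the log2 fold change over the square root of F, and are approximate at low counts. The scripts were tested on simulated data. A group at 0 counts is compared through a floor of 3 counts over the group.

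The comparison, the 40 gene lists and the alternatives were chosen with earlier results of these data known. Genes named are those called, with a mean of at least 5 CPM over the LDN libraries, no overlap between groups and a named symbol, up to 15 per direction, up to 8 of smallest p per difference of contrasts, and list members. Gm17251 and the genes named only in the closing section were chosen after their values were seen. Deviations from group means correlated at 0.596, 0.241 and 0.284 in the 3 same-numbered RA pairs (over 0.1 in each), so RA numbers were taken to pair libraries, as a hint from the data that no label states. FOXA2-positive RA library 2 correlated slightly better with FOXA2-negative library 3 (0.251). RA counts with this block were added after seeing the data. Alternatives were DESeq2 1.42.0, RLE scaling, other filters, the LDN libraries alone, a replicate block, leaving out chromosomes 6, 8 and Y, leaving out the RA libraries numbered 1, and leaving out each library. Some items are not reported here, although totals over all genes and lists include them.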

Additional observations from a re-analysis of the deposited data

Results flagged for a closer look

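For 6 genes described here the difference between FOXA2-positive and FOXA2-negative cells after LDN differed from that after another treatment by the test of the difference itself. Against BMP4 the log2 difference of contrasts was -2.43 for Tbx3, -8.10 for Msx2 (a fitted value, since Msx2 had 0 counts in FOXA2-positive LDN cells), -2.28 for Tfap2c, -1.43 for Krt18 and -4.73 for Urgcp (edgeR adjusted p between 0.00438 and 0.049). Against RA it was 4.87 for Gm17251 (edgeR adjusted p = 0.000102), where agent and time cannot be told apart. Of the genes named that differed from BMP4, Tbx3 and Msx2 are on the list of BMP-SMAD targets. In Tbx3 and Krt18 the FOXA2-positive cells had the lower level after LDN and the higher level after BMP4, where neither contrast was called. After RA the FOXA2-positive cells also had the lower level of both genes, and neither RA contrast was called. The difference between the LDN and RA contrasts was called for neither gene, so their lower level is not particular to LDN. No LDN, BMP4 or RA group held 4 or more libraries, so single libraries could not be tested as outliers.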

How the results depend on the processing

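The 177 genes called after LDN were 487 with DESeq2, 460 with no filter on low counts, 169 with RLE scaling, 194 with at least 5 CPM in 2 libraries, 147 without genes of chromosomes 6, 8 and Y, 257 without both RA libraries numbered 1 and 212 in the 5 LDN libraries alone, where 119 of the 177 were called again. The difference between LDN and RA contrasts gave 1 gene, 6 with DESeq2 and 31 with no filter. That between LDN and BMP4 gave 6 genes, 34 with DESeq2 and 54 with no filter. The cause of these moves was not tested. With 1 library left out at a time the counts ran from 66 to 163 for LDN, from 1 to 2 against RA and from 3 to 7 against BMP4, and a lone FOXA2-positive library was then assumed to vary like other groups. The deviations of same-numbered LDN libraries from their group means had correlations of 0.054 and 0.056 (6669 genes), under the limit of 0.1, and the BMP4 pairs had 0.018 to 0.074, so the numbers were not taken to pair these libraries. Differently numbered pairs were lower still, at -0.056 to 0.001 for LDN and -0.069 to 0.006 for BMP4, so a weak pairing is not excluded. The deviations of 2 FOXA2-positive LDN libraries from their mean mirror each other, so the LDN correlations say little about pairing. With the replicate block the calls were 220 after LDN (139 of the 177 among them), 1 against RA and 6 against BMP4, and, in a reading added after seeing the data, 282 rather than 164 after BMP4. Of the 177 calls, 72 were lost under at least 1 setting other than leaving out a library, 5 of them among the 27 that no left-out LDN library ended. Over the named genes and all settings, 906 values kept their direction and side of the threshold, 198 lost and 14 gained a call, and 0 changed sign. These genes were chosen by their values in the main fit and the settings share most libraries. The absence of a changed sign is thus no measure of how stable they are. With 2 FOXA2-positive libraries, genes of low level have little power, and values near 3 counts over a group cannot be told from 0.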

Other observations

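Several of the calls that held with each LDN library left out lie in none of the gene lists and were chosen for mention after their values were seen. Gpx4, the glutathione peroxidase that repairs oxidised membrane lipids, had 179 and 164 CPM in FOXA2-positive libraries, against 669, 515 and 717 CPM in FOXA2-negative libraries (log2 fold change -1.89 ± 0.22, SE; edgeR adjusted p = 2e-05). Its pseudogene Gpx4-ps2 was also called lower (-1.54, adjusted p = 0.0146), and how reads were split between the copies is uncertain. Chchd10, a mitochondrial protein gene, had 106 and 88.5 CPM in FOXA2-positive libraries, against 380, 228 and 367 CPM in FOXA2-negative libraries (-1.74 ± 0.25, adjusted p = 0.000379). Hspb1, a small heat shock protein gene, had 41.6 and 38.6 CPM in FOXA2-positive libraries, against 127, 144 and 134 CPM in FOXA2-negative libraries (-1.75 ± 0.26, adjusted p = 0.000416). Mylpf, a myosin light chain gene of fast muscle, had 20 and 19.7 CPM in FOXA2-positive libraries, against 172, 118 and 180 CPM in FOXA2-negative libraries (-2.98 ± 0.35, adjusted p = 4.21e-05, but 0.0523 with the replicate block).

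The metallothionein genes Mt1 and Mt2, neighbours on chromosome 8 that bind zinc and copper, were both called lower. Mt1 had 1210 and 1216 CPM in FOXA2-positive libraries, against 2097, 2479 and 2128 CPM in FOXA2-negative libraries (-0.88 ± 0.18, edgeR adjusted p = 0.0144). Mt2 had a log2 fold change of -1.09 ± 0.19 (adjusted p = 0.00262). The adjusted p of Mt1 was 0.148 without FOXA2-positive library 3, and that of Mt2 was 0.0513 without FOXA2-positive library 2. Among genes that reached 20 CPM, log2 fold changes had a median of -0.27 on chromosome 8 (418 genes, 22.7% higher) and 0.24 on chromosome 6 (327 genes, 77.1% higher). The medians of the other numbered chromosomes ran from -0.015 on chromosome 9 to 0.078 on chromosome 3. Their share of genes that were higher ran from 48% on chromosome 16 to 56.6% on chromosome 3. Chromosomes 6 and 8 thus lay outside the range of the other numbered chromosomes in both measures. Nanog, Cttnbp2 and Ccnd2 lie on chromosome 6, and Zfp42, Nrp1, Mt1 and Mt2 on chromosome 8. Of the 177 calls 27 lie on chromosomes 6, 8 and Y. The share of all tested genes on these chromosomes is not given, so the 27 cannot be read as an excess. At 20 CPM or more, 10 of 327 genes were called on chromosome 6 and 10 of 418 on chromosome 8. On the other numbered chromosomes this ran from 1 of 204 on chromosome 16 to 9 of 219 on chromosome 13. The part of the chromosome in the 27 calls was not tested beyond the count without chromosomes 6, 8 and Y, which was 147.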
